A study of Mus musculus with 14 samples.

Results

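Neuregulins and the other ligands of the epidermal growth factor (EGF) family are small signaling proteins that bind the ErbB receptor tyrosine kinases. The 9 genes described are 5 ligands (Hbegf, Ereg, Btc, Nrg1 and Nrg2) and the 4 receptors (Egfr, Erbb2, Erbb3 and Erbb4), chosen by gene name. All 9 were found among the 49315 genes of the deposited table of read counts, and all 9 were kept for testing among 15292 genes. RNA was taken from left ventricular tissue of male mice that had undergone transverse aortic constriction (TAC), a surgical narrowing of the aorta that imposes pressure overload, or a Sham operation. WT mice carried the normal pacemaker channel gene Hcn4, and HCN4F mice carried a targeted tyrosine-to-phenylalanine replacement in it. Mice of all groups were 10 to 12 weeks old at surgery and their hearts were analysed 5 weeks later, and a 27-G needle set the degree of constriction. The libraries were 4 from WT-Sham, 2 from WT-TAC (replicates 2 and 3), 4 from HCN4F-Sham and 4 from HCN4F-TAC hearts. The HCN4F mice are 1 knock-in line, for which no restriction to a cell type is described.

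In the heart, ligands made by one cell type act on receptors of another. Neuregulin 1, the product of Nrg1, is known as a signal from endothelial cells that binds ERBB4 on cardiomyocytes, and ERBB4 then pairs with ERBB2, which binds no ligand of its own. ERBB3 binds neuregulins but has a very weak kinase and signals through its partner. Heparin-binding EGF-like growth factor (HB-EGF, from Hbegf), betacellulin (Btc) and epiregulin (Ereg) bind EGFR and ERBB4. The ligands are made as membrane-bound precursors that proteases of the ADAM family cut free.

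The ligands share a fold, the EGF-like domain, held by 6 cysteines, which is the part that binds the receptor. The coding stretches from the first to the sixth cysteine codon are shown for Nrg1, Ereg, Nrg4 and, as a relative of Ereg to compare it with, Btc, and those of Nrg1 tell apart the receptor-binding ends of 2 neuregulin 1 forms whose reads one gene count adds together. Capitals mark the 6 cysteine codons. Each stretch lies in 2 coding exons and the interval given also spans the intron between them (GRCm38, GENCODE M21). The first Nrg1 form (chr8:31837698-31849398, minus strand) occurs in 8 of 12 coding transcripts and the second (chr8:31838298-31849398, minus strand) in 4. The others are Btc (chr5:91362421-91366197, minus strand), Ereg (chr5:91088496-91089111, plus strand) and Nrg4 (chr9:55242177-55280969, minus strand), a neuregulin outside the 9 genes.
Nrg1, first form: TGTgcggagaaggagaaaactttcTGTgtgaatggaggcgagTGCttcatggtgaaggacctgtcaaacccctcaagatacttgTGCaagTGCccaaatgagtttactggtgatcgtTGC
Nrg1, second form: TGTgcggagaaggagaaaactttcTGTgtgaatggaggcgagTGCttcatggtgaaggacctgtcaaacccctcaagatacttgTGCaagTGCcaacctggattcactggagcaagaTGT
Btc: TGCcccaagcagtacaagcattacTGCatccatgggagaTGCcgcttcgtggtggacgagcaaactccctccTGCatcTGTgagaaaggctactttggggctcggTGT
Ereg: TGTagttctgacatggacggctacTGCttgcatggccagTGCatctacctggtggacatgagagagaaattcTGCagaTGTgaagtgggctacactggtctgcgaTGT
Nrg4: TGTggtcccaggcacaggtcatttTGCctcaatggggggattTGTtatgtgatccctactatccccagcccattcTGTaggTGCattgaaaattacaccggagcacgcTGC

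In every stretch 7 codons separate the first and the second cysteine, 1 the fourth and the fifth, and 8 the fifth and the sixth. The loops in between differ. The stretch between the third and the fourth cysteine holds 13 codons in both Nrg1 forms and 10 in Btc, Ereg and Nrg4. The 2 Nrg1 forms encode the same amino acid at 36 of 40 positions and part company after the fifth cysteine. Btc and Ereg encode the same amino acid at 16 of 36 positions. The counts are per gene, so the Nrg1 values below do not separate the 2 forms.

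Library depth ran from 22309900 to 35210900 gene counts (median 27676200, to 6 significant digits). A count of 0 in a library allows up to 3 reads, which is 0.0859 to 0.137 CPM (read counts scaled to a common library size), and this limit covers counting error only. Cardiomyocyte, endothelial, fibroblast, smooth muscle, macrophage and Schwann cell markers were detected in each group, as is usual for ventricular tissue. One library, HCN4F-TAC replicate 2, stood apart in Myl7, an atrial myosin light chain, at 9.91 CPM, while every other library was at 0.694 CPM or below. The summed level of the atrial markers did not set it apart, at 46.6 CPM there and 16.9 to 41.6 CPM in the other 13. Values without this library are given beside results of Hbegf, Ereg, Nrg1 and Erbb4. In RNA from whole tissue, fewer cells of a type and less RNA per cell cannot be told apart. Hcn4 itself was at 9.45 ± 1.07 CPM in WT-Sham, 12.7 ± 1.12 in WT-TAC, 9.07 ± 2.87 in HCN4F-Sham and 6.72 ± 2.54 in HCN4F-TAC hearts (mean ± SD), and since the replacement changes a codon these levels do not check the genotype.

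Among the 9 genes, Hbegf had the highest level per exon length in every group. To compare genes, CPM was divided by the kilobases (kb) of exon annotated for each gene. In WT-Sham hearts Hbegf was at 2.46 ± 0.22 CPM per kb, Erbb2 at 1.98 ± 0.11 and Erbb3 at 1.65 ± 0.08 (SD, n = 4). Egfr followed at 0.837 ± 0.069, Nrg2 at 0.526 ± 0.135, Erbb4 at 0.463 ± 0.031, Btc at 0.270 ± 0.066, Nrg1 at 0.119 ± 0.025 and Ereg at 0.0108 ± 0.0083 CPM per kb. The libraries of Nrg2 and Erbb4, which neighbour each other in this order, overlapped, and those of the other neighbours did not. The same 3 genes led in the other groups, with Erbb3 at 2.34 and Erbb2 at 2.07 CPM per kb in WT-TAC hearts. Ereg was lowest in all 4 groups.

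**Figure D1:**
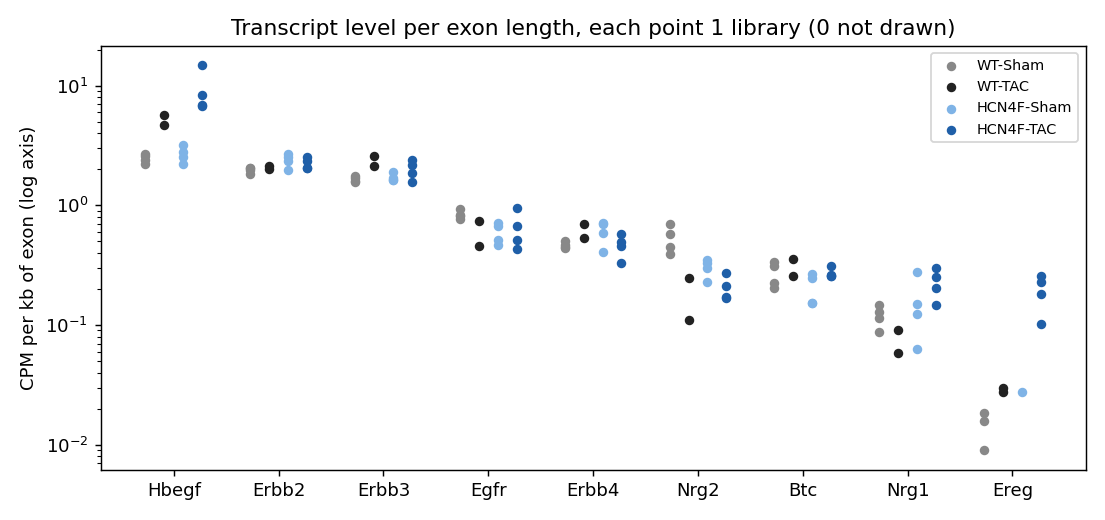
Level of the 9 genes in CPM per kb of exon (log axis), 1 point per library, coloured by group; libraries at 0 (Ereg, 1 WT-Sham and 3 HCN4F-Sham) are not drawn. Hbegf is at the top in every group, and Ereg spans the widest range, from 0.00895 CPM per kb among the points drawn to 0.255 CPM per kb.

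The 4 receptors together amounted to 4.93 ± 0.14 CPM per kb in WT-Sham, 5.62 ± 0.08 in WT-TAC, 5.29 ± 0.33 in HCN4F-Sham and 5.34 ± 0.56 in HCN4F-TAC hearts. The 5 ligands together amounted to 3.38 ± 0.38, 5.73 ± 0.65, 3.35 ± 0.45 and 10.1 ± 3.77 CPM per kb in the same order. Most of the ligand sum was Hbegf in each group, with a share of 72.8% ± 2.2 in WT-Sham, 89.6% ± 2.1 in WT-TAC, 80.0% ± 3.9 in HCN4F-Sham and 90.3% ± 3.0 in HCN4F-TAC hearts. Nrg2 supplied 15.4% ± 2.2 of the ligand sum in WT-Sham hearts and 3.24% ± 2.09 in WT-TAC hearts. Among receptors, Erbb2 held the largest share in 3 groups (40.1% in WT-Sham, 45.0% in HCN4F-Sham and 42.0% in HCN4F-TAC) and Erbb3 in WT-TAC (41.7%, against 36.8% for Erbb2). These sums are of transcripts and say nothing of protein.

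The effect of pressure overload was read from TAC compared with Sham hearts within each genotype. A gene was called where the adjusted p-value of edgeR's quasi-likelihood test was under 0.05 and the log2 fold change above 1 or below -1. In WT hearts 0.706% of the tested genes were called and in HCN4F hearts 2.75%. On the adjusted p-value alone 4.54% passed in WT hearts and 13.6% in HCN4F hearts. Of the 9 genes, 2 were called in WT hearts (Hbegf higher, Nrg2 lower) and 2 in HCN4F hearts (Hbegf and Ereg, both higher). Ereg was kept for testing through the HCN4F-TAC group in which it is high, so its call is a description. No receptor was called in either genotype. The WT and HCN4F comparisons share no libraries, but both share theirs with the comparisons between genotypes.

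**Figure D2:**
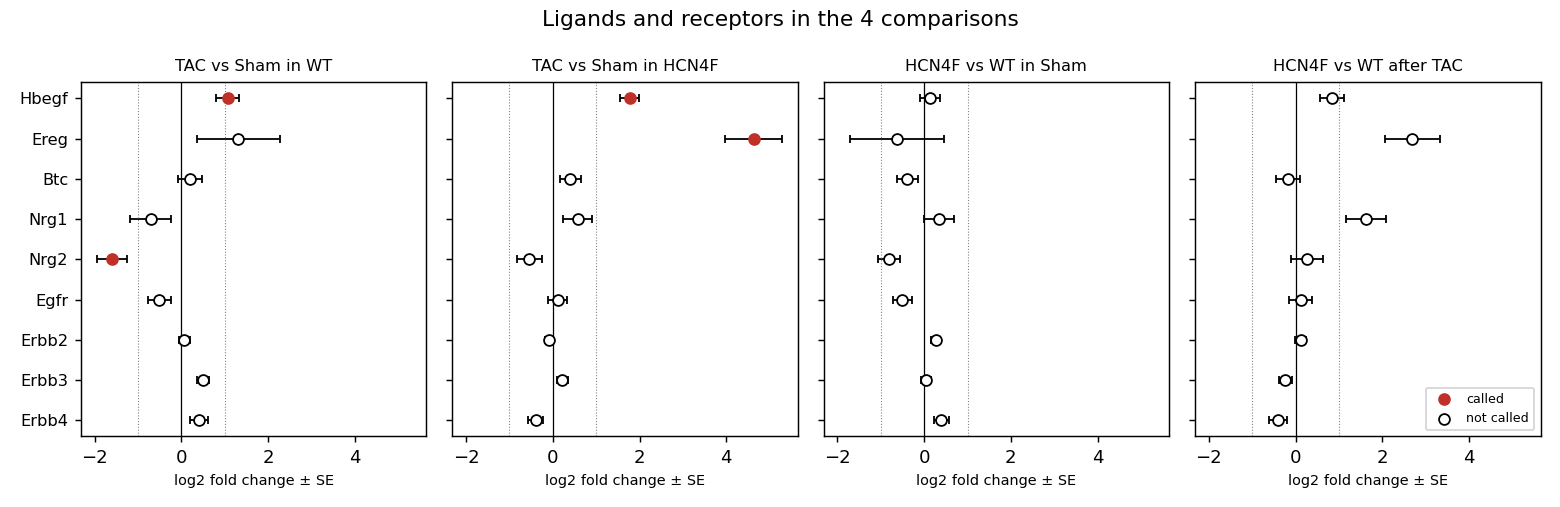
Log2 fold change ± SE of the 9 genes in each of the 4 comparisons, with called genes as filled points and the others open. Dotted lines mark log2 fold changes of -1 and 1, and the Ereg values are model fits on few reads. Called are Hbegf and Nrg2 after TAC in WT hearts and Hbegf and Ereg after TAC in HCN4F hearts, and no gene is called between genotypes.

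Hbegf rose after TAC in both genotypes. HB-EGF is shed from its precursor and activates EGFR and ERBB4. The gene lies on chromosome 18 (36504927 to 36515805, minus strand). Hbegf was at 10.6, 11.5, 12.9 and 12.5 CPM in the WT-Sham libraries and at 22.5 and 27.3 CPM in the WT-TAC libraries. It was at 13.4, 10.7, 12.3 and 15.4 CPM in the HCN4F-Sham libraries and at 71.7, 40.5, 33.2 and 32.7 CPM in the HCN4F-TAC libraries. Every TAC library lay above every Sham library of its genotype, and the highest, HCN4F-TAC replicate 1, stood well above the rest of its group. The log2 fold change was 1.07 ± 0.27 (SE, adjusted p = 0.0415) in WT hearts and 1.77 ± 0.23 (adjusted p = 0.000362) in HCN4F hearts.

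The WT call for Hbegf was lost when any 1 of the 6 WT libraries was left out, with log2 fold changes of 0.92 to 1.20 and adjusted p from 0.0625 to 0.324. The direction held throughout. In HCN4F hearts the call remained without replicate 1 (log2 fold change 1.45 ± 0.12, adjusted p = 2.06e-05) and without replicate 2 (1.81 ± 0.25, adjusted p = 0.00114). Between the TAC groups all 4 HCN4F libraries lay above both WT libraries, with a log2 difference of 0.84 ± 0.27 that did not pass (adjusted p = 0.235). That difference was 0.51 ± 0.14 without HCN4F-TAC replicate 1 (adjusted p = 0.209). The Sham groups overlapped (log2 difference 0.13 ± 0.23, adjusted p = 0.833).

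Ereg was close to undetected in Sham hearts and rose in HCN4F hearts after TAC. Epiregulin activates EGFR and ERBB4, and its gene lies on chromosome 5 (91074622 to 91093646, plus strand). The reads counted were 1, 0, 2 and 2 in WT-Sham, 3 and 4 in WT-TAC, 3, 0, 0 and 0 in HCN4F-Sham and 18, 32, 12 and 23 in HCN4F-TAC libraries. In CPM the HCN4F-TAC libraries were at 0.746, 1.05, 0.424 and 0.936, and every other library was at 0.123 or below. The gene was therefore kept for testing through the HCN4F-TAC group in which it is high, and its call is given as a description of these levels. From 85 reads against 3, the level in HCN4F-TAC was 28.8 times that in HCN4F-Sham hearts. The exact 95% counting interval was 9.54 to 143, which leaves out the spread between animals. Without a filter on low counts edgeR gave an adjusted p of 2.59e-09, from the same reads and so no separate support. In the main fit the adjusted p was 0.000285. Without HCN4F-TAC replicate 2, the library with high Myl7 and the highest Ereg level, the adjusted p was 0.00116. All 3 Sham reads came from HCN4F-Sham replicate 1, so the ratio rests on that library, and without it the fitted log2 fold change moved from 4.63 to 7.46, a value that depends on the prior count since the Sham reads are then 0. The fibroblast marker sum was 689 to 892 CPM in HCN4F-Sham and 1193, 1323, 834 and 1258 CPM in HCN4F-TAC libraries, and the macrophage sum 198 to 263 and 239, 302, 190 and 298 CPM. Both sums ranked the 4 TAC libraries in the order of their Ereg levels, and their part in the Ereg difference was not tested.

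In WT hearts the 7 reads after TAC against 5 in Sham gave a ratio of 2.63 with a counting interval of 0.719 to 10.5. A change of Ereg was not detectable there from so few reads in 2 WT-TAC libraries. The counting intervals pool the reads of a group and leave out the spread between animals. Between the TAC groups the HCN4F level was 6.70 times the WT level (counting interval 3.12 to 17.2) and the groups did not overlap, yet the test across libraries did not pass (adjusted p = 0.106). The result depended on the processing, with adjusted p of 0.0287 for DESeq2 and 0.311 for edgeR on the 2 TAC groups, 0.0121 for edgeR without a filter on low counts, and 0.0175 (without HCN4F-TAC replicate 3) to 0.575 with a library left out. Leaving out HCN4F-TAC replicate 3 moved many genes, with 158 of 15300 called between TAC groups, against 11 of 15292 with all libraries. Without HCN4F-TAC replicate 2 the log2 difference of Ereg was 2.50 ± 0.67 (adjusted p = 0.247). Exons of Ereg overlap the antisense gene Gm19610 on the opposite strand over 141 bases (3.42% of its exon length), and since use of strand in counting is not given, reads there cannot be assigned.

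Btc, the betacellulin gene on chromosome 5 (91357261 to 91402994, minus strand), gave no call. It was at 0.924, 1.41, 1.53 and 1.01 CPM in WT-Sham and 1.15 and 1.60 CPM in WT-TAC libraries. In HCN4F-Sham it was at 1.20, 0.685, 1.12 and 0.694 CPM and in HCN4F-TAC at 1.16, 1.15, 1.41 and 1.18 CPM. All groups overlapped their comparison group. The log2 fold change after TAC was 0.19 ± 0.28 in WT hearts (95% interval -0.39 to 0.78) and 0.40 ± 0.24 in HCN4F hearts (-0.11 to 0.92).

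**Figure D3:**
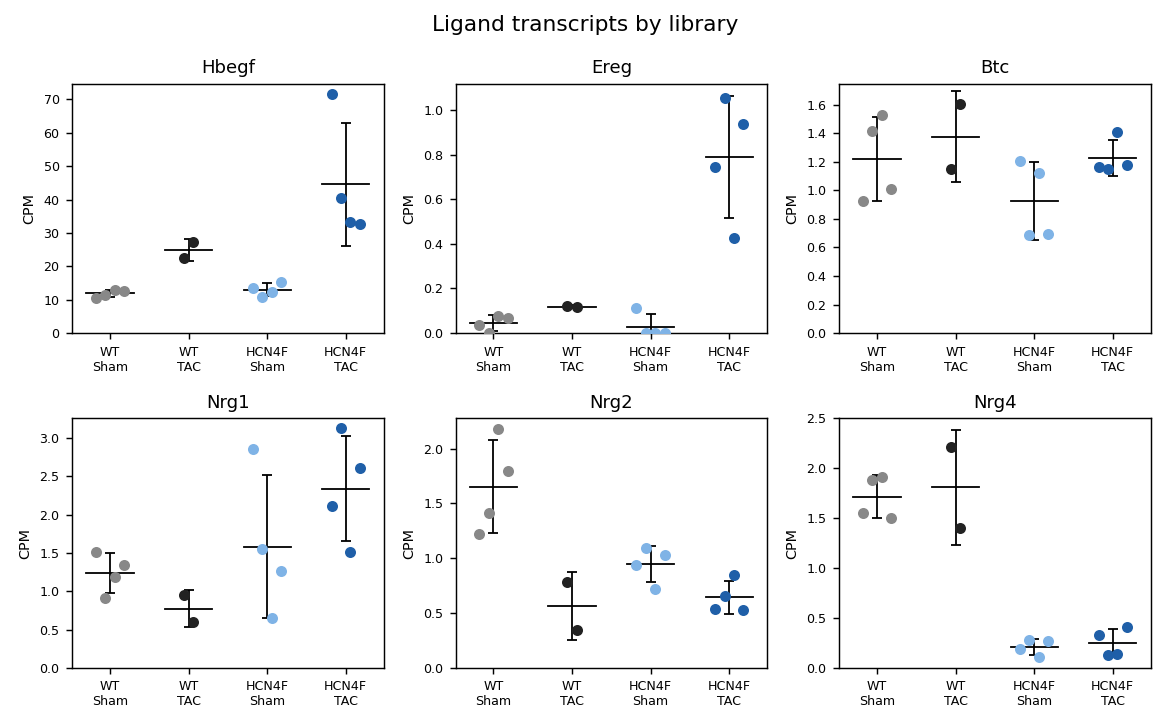
CPM of the 5 ligands and of Nrg4 in each library, by group; the horizontal line is the group mean and the bar its SD, drawn no lower than 0. Hbegf is higher in all TAC than in all Sham libraries, Ereg stands out in the 4 HCN4F-TAC libraries (0.424 to 1.05 CPM), and Nrg4 is at 0.407 CPM or below in every HCN4F library and at 1.40 CPM or above in every WT library.

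Every HCN4F-TAC library had more Nrg1 than either WT-TAC library, a difference that passed the threshold with DESeq2 but not with edgeR. The gene spans chromosome 8 from 31814551 to 32884029 on the minus strand. Nrg1 was at 1.52, 0.907, 1.19 and 1.34 CPM in WT-Sham and at 0.945 and 0.601 CPM in WT-TAC libraries. It was at 2.86, 1.55, 0.651 and 1.27 CPM in HCN4F-Sham and at 2.12, 3.13, 1.52 and 2.60 CPM in HCN4F-TAC libraries. The HCN4F-Sham libraries spread over the range of all the others but HCN4F-TAC replicate 2 and WT-TAC replicate 3, while the TAC groups did not overlap. The level after TAC was 0.773 ± 0.243 CPM (SD, n = 2) in WT and 2.34 ± 0.69 CPM (SD, n = 4) in HCN4F hearts. Beside this, 7 fibroblast markers summed to 665 and 788 CPM in WT-TAC and 834 to 1323 CPM in HCN4F-TAC libraries, which did not overlap, and 7 macrophage markers to 187 and 198 against 190 to 302 CPM, with none at 0 in any group. The fitted level was higher in HCN4F-TAC for 7 of 7 markers of each list, 6 of the fibroblast and 4 of the macrophage markers at an unadjusted p under 0.05, where 12.5% of all tested genes were, and none past the adjusted threshold. The 7 endothelial markers summed to 843 and 1054 CPM in WT-TAC and 950 to 1018 CPM in HCN4F-TAC libraries, which overlapped. Of these 7, 5 had a higher fitted level in HCN4F-TAC and 0 an unadjusted p under 0.05. The part of these cell types in the Nrg1 difference was not tested.

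The log2 difference of Nrg1 between the TAC groups was 1.63 ± 0.46 (95% interval 0.64 to 2.62, adjusted p = 0.170 by edgeR's quasi-likelihood test). DESeq2 gave 1.61 (adjusted p = 0.0325) on all groups and 1.62 (adjusted p = 0.0122) on the 2 TAC groups, and called it both times. Over all genes DESeq2 called 83 of 14782 and 68 of 13882 in these fits, against 11 of 15292 by edgeR. Without HCN4F-TAC replicate 2, the library with high Myl7 and the highest Nrg1, edgeR gave 1.44 ± 0.48 (adjusted p = 0.363). Without replicate 3, the lowest of the group, it gave 1.79 ± 0.46 (adjusted p = 0.0473). Leaving out replicate 3 moved many genes, with 158 of 15300 called between TAC groups, against 11 of 15292 with all libraries. Within genotypes neither TAC response of Nrg1 passed, with a log2 fold change of -0.71 ± 0.48 (adjusted p = 0.403) in WT and 0.58 ± 0.34 (adjusted p = 0.282) in HCN4F hearts. The second was 1.03 ± 0.30 and called (adjusted p = 0.0328) without HCN4F-Sham replicate 1, whose Nrg1 of 2.86 CPM was the highest of the Sham libraries. It was 0.31 ± 0.29 without HCN4F-Sham replicate 3 (adjusted p = 0.535) and 0.39 ± 0.36 without HCN4F-TAC replicate 2 (adjusted p = 0.549), and the WT response ran from -1.03 without WT-TAC replicate 2 to -0.39 without replicate 3. The Sham groups differed by 0.34 ± 0.35 (adjusted p = 0.680), and by -0.11 without that same library. Exons of Nrg1 overlap the noncoding gene Gm26578 on the opposite strand over 482 bases (4.66% of exon length).

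Nrg2, which encodes neuregulin 2, a ligand of ERBB3 and ERBB4, fell after TAC in WT hearts. It lies on chromosome 18 (36017652 to 36197380, minus strand). Nrg2 was at 1.22, 1.41, 2.18 and 1.80 CPM in WT-Sham and at 0.780 and 0.343 CPM in WT-TAC libraries. In HCN4F-Sham it was at 0.941, 1.10, 0.723 and 1.03 CPM and in HCN4F-TAC at 0.539, 0.659, 0.848 and 0.529 CPM. Every WT-Sham library lay above every library of the other 3 groups. The log2 fold change after TAC was -1.61 ± 0.35 in WT hearts (adjusted p = 0.0205, called) and -0.54 ± 0.28 in HCN4F hearts (adjusted p = 0.227). The WT call was lost without WT-TAC replicate 3 (-1.08 ± 0.41, adjusted p = 0.306) or without WT-Sham replicate 4 (-1.56 ± 0.38, adjusted p = 0.0599). Between Sham groups the log2 difference of HCN4F from WT was -0.80 ± 0.25 (adjusted p = 0.150), and between TAC groups 0.27 ± 0.37 (adjusted p = 0.825).

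Of the receptors, none reached the fold threshold after TAC in either genotype. Egfr, the receptor of EGF and HB-EGF, lies on chromosome 11 (16752203 to 16918158, plus strand). It was at 8.69, 10.6, 9.21 and 9.47 CPM in WT-Sham, 8.30 and 5.15 in WT-TAC, 8.13, 7.58, 5.31 and 5.83 in HCN4F-Sham and 5.76, 7.64, 4.91 and 10.7 CPM in HCN4F-TAC libraries. The WT-Sham libraries lay above both WT-TAC and all HCN4F-Sham libraries. Neither difference passed, with a log2 fold change of -0.51 ± 0.27 after TAC in WT hearts (adjusted p = 0.281; -0.88 without WT-TAC replicate 2 and -0.19 without replicate 3) and a log2 difference of -0.50 ± 0.22 between HCN4F-Sham and WT-Sham (adjusted p = 0.287). DESeq2 on the Sham groups alone gave that difference an adjusted p of 0.0385, and the other alternatives 0.109 or more. In HCN4F hearts the log2 fold change was 0.11 ± 0.22 and turned to -0.13 without HCN4F-TAC replicate 4.

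In the main fit Erbb2, the shared partner of the other receptors, had the smallest fold changes after TAC among the 4 receptors in both genotypes. In HCN4F hearts its order against Egfr was not settled. With a library left out Egfr ran there from -0.13 to 0.26 and Erbb2 from -0.16 to -0.035 on the log2 scale. The Erbb2 gene lies on chromosome 11 (98412470 to 98437716, plus strand). Erbb2 was at 10.7, 10.7, 10.3 and 9.51 CPM in WT-Sham, 11.1 and 10.5 in WT-TAC, 10.4, 13.1, 13.9 and 12.2 in HCN4F-Sham and 10.7, 10.7, 13.2 and 12.1 CPM in HCN4F-TAC libraries. The log2 fold change after TAC was 0.06 ± 0.12 in WT hearts (95% interval -0.20 to 0.33) and -0.09 ± 0.10 in HCN4F hearts (-0.30 to 0.13), so these intervals exclude a doubling or halving. Between Sham groups HCN4F was higher by 0.27 ± 0.10 on the log2 scale, which did not pass (adjusted p = 0.227).

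**Figure D4:**
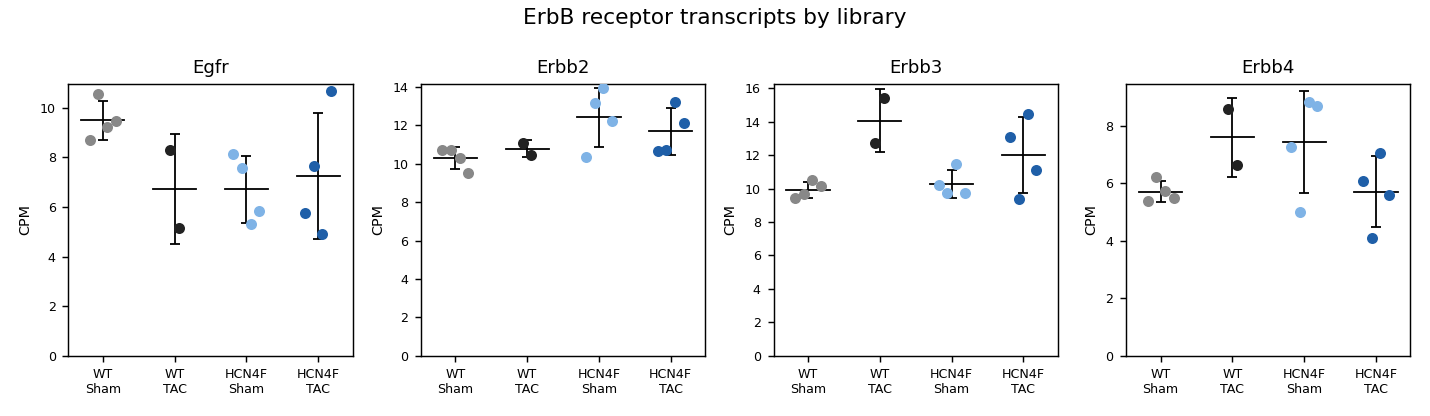
CPM of the 4 receptors in each library, by group, with the group mean (line) and SD (bar) on axes that start at 0. The libraries of all groups lie between 9.51 and 13.9 CPM for Erbb2, and both WT-TAC libraries lie above all WT-Sham libraries for Erbb3 and Erbb4.

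Erbb3, a neuregulin receptor that is also expressed by Schwann cells, was higher in both WT-TAC than in all WT-Sham libraries. It lies on chromosome 10 (128567523 to 128589652, minus strand). Erbb3 was at 9.46, 9.65, 10.5 and 10.1 CPM in WT-Sham, 12.7 and 15.4 in WT-TAC, 10.2, 9.72, 11.5 and 9.72 in HCN4F-Sham and 13.1, 9.35, 14.5 and 11.1 CPM in HCN4F-TAC libraries. The HCN4F groups overlapped, with replicate 2 the lowest of the HCN4F-TAC libraries. The log2 fold change was 0.50 ± 0.14 in WT hearts, just outside the threshold on the adjusted p-value (0.0522), and 0.22 ± 0.12 in HCN4F hearts (adjusted p = 0.237). In WT hearts the adjusted p was 0.0199 with DESeq2 on all groups, 0.00332 with DESeq2 and 0.0104 with edgeR on the WT groups alone, 0.0113 without a filter and 0.0489 with DESeq2's size factors, but 0.0508 with a mean CPM of at least 1, 0.0564 with non-robust estimation, 0.0685 with the replicate block and 0.0662 to 0.436 with a WT library left out, and the fold stayed under the threshold for a call. Without HCN4F-TAC replicate 2 the latter was 0.33 ± 0.11 (adjusted p = 0.0744).

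Schwann and other glial cells were followed by 7 markers. Their summed level was 13.5 to 16.9 CPM in WT-Sham, 12.1 and 13.3 in WT-TAC, 12.8 to 22.0 in HCN4F-Sham and 8.96 to 13.6 CPM in HCN4F-TAC libraries, and none of the 7 was at 0 in any group. In HCN4F hearts 5 of the 7 were called lower after TAC, where 1.16% of all tested genes were. The glial transcription factor gene Sox10 fell by 1.05 on the log2 scale (adjusted p = 0.0132). In WT hearts none of the 7 passed, and all had fold changes below 0. The part of these cells in the Erbb3 values was not tested.

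**Figure D5:**
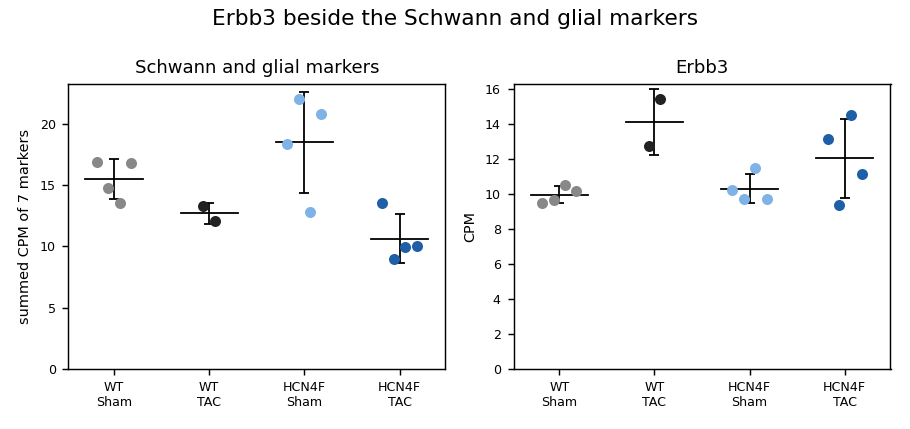
Summed CPM of 7 Schwann and glial markers (left) and CPM of Erbb3 (right) in each library, by group, with mean (line) and SD (bar). The marker sum is 8.96 to 13.6 CPM in HCN4F-TAC and 12.8 to 22.0 CPM in HCN4F-Sham libraries, while Erbb3 is 9.35 to 14.5 and 9.72 to 11.5 CPM in the same libraries.

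Erbb4, the neuregulin receptor of cardiomyocytes, had TAC responses of opposite sign in the 2 genotypes, neither of which passed. It spans chromosome 1 from 68032186 to 69108059 on the minus strand. Erbb4 was at 5.40, 6.24, 5.74 and 5.49 CPM in WT-Sham, 8.59 and 6.64 in WT-TAC, 7.26, 5.02, 8.82 and 8.70 in HCN4F-Sham and 6.10, 4.08, 7.06 and 5.61 CPM in HCN4F-TAC libraries. Both WT-TAC libraries lay above all WT-Sham libraries, while the HCN4F groups overlapped. The log2 fold change was 0.41 ± 0.21 in WT hearts (adjusted p = 0.270) and -0.39 ± 0.18 in HCN4F hearts (adjusted p = 0.151). The former was 0.22 ± 0.27 without WT-TAC replicate 2 (adjusted p = 0.725) and 0.59 ± 0.27 without replicate 3 (adjusted p = 0.374). The latter was -0.26 ± 0.17 without HCN4F-TAC replicate 2 (adjusted p = 0.375) and -0.54 ± 0.15 without HCN4F-Sham replicate 2 (adjusted p = 0.0354), still under the fold threshold. The summed level of 7 cardiomyocyte markers was 59068 to 61603 CPM in WT-Sham, 54030 and 55839 in WT-TAC, 53369 to 56745 in HCN4F-Sham and 41460 to 49671 CPM in HCN4F-TAC libraries, and its part in the Erbb4 values was not tested.

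The genotypes were compared within Sham and within TAC hearts. In Sham hearts 0.209% of the tested genes were called (0.471% on the adjusted p-value alone), and in TAC hearts 0.0719% (0.111% on the adjusted p-value alone). With edgeR on all 14 libraries and its filter on low counts, none of the 9 genes was called or passed on the adjusted p-value in either. At an unadjusted p under 0.05 there were 4 of 9 in Sham (Nrg2, Egfr, Erbb2 and Erbb4) and 3 of 9 in TAC hearts (Nrg1, Ereg and Hbegf), where 15.2% and 12.5% of all tested genes were. DESeq2 called none of the 9 in Sham hearts, where Ereg had no adjusted p. Over all genes it called 60 of 13626 there on all groups and 85 of 15124 on the 2 Sham groups, against 32 of 15292 by edgeR. In TAC hearts it called 1 of the 9 on all groups (Nrg1), where Ereg had no adjusted p, and 2 on the 2 TAC groups (Nrg1 and Ereg). Over all genes these DESeq2 fits called 83 of 14782 and 68 of 13882, against 11 of 15292 by edgeR.

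Whether TAC acted differently in the 2 genotypes was tested as the difference of their log2 fold changes. DESeq2 on all groups passed 37 of 13048 genes on the adjusted p-value alone, none of them among the 9, and gave Ereg no adjusted p. With edgeR no tested gene passed on the adjusted p-value (0% of 15292), whereas 9.27% had an unadjusted p under 0.05. Among the 9 genes the unadjusted p was under 0.05 for Erbb4, Nrg1, Nrg2 and Ereg. The HCN4F minus WT response was -0.80 ± 0.27 for Erbb4 (adjusted p = 0.459) and 1.28 ± 0.59 for Nrg1 (adjusted p = 0.520), both from edgeR's test, and without HCN4F-TAC replicate 2 these were -0.68 ± 0.25 (adjusted p = 0.658) and 1.09 ± 0.59 (adjusted p = 0.720). For Nrg2 it was 1.07 ± 0.45 (adjusted p = 0.491 by edgeR), and 1.71 without WT-TAC replicate 2 and 0.54 without replicate 3. The Hbegf responses differed by 0.70 ± 0.35 (adjusted p = 0.570), and by 0.38 ± 0.19 without HCN4F-TAC replicate 1. A difference between genotypes in the TAC response was thus not shown for any of the 9 genes.

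Of the 6 other EGF-family ligands, Nrg4 was lower in HCN4F than in WT hearts after either operation. Neuregulin 4 is a ligand of ERBB4. Nrg4 was at 1.55, 1.89, 1.91 and 1.50 CPM in WT-Sham and 2.22 and 1.40 in WT-TAC libraries. It was at 0.188, 0.274, 0.108 and 0.272 CPM in HCN4F-Sham and 0.332, 0.132, 0.141 and 0.407 CPM in HCN4F-TAC libraries. No HCN4F library came near a WT library. The log2 difference was -3.00 ± 0.33 in Sham (adjusted p = 0.000175) and -2.85 ± 0.36 in TAC hearts (adjusted p = 0.00138), while TAC itself left Nrg4 at log2 fold changes of 0.06 ± 0.30 in WT and 0.21 ± 0.43 in HCN4F hearts. The TAC difference was no longer past the threshold with edgeR on the 2 TAC groups alone (-2.85 ± 0.43, adjusted p = 0.0988) or without WT-TAC replicate 2 (-2.50 ± 0.43, adjusted p = 0.0537), and passed in the other alternatives that gave a value (adjusted p from 8.84e-09 to 0.0111).

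Nrg4 lies on chromosome 9 (55220222 to 55326844, minus strand), 3.50 Mb from Hcn4 on the same chromosome (58823412 to 58863175, plus strand). The replaced codon and other DNA inherited with the knock-in allele cannot be told apart in these groups. Exons of Nrg4 overlap those of Fbxo22 on the opposite strand over 368 bases (6.06% of exon length). Egf was at 2.10 to 6.76 CPM and Tgfa at 0.434 to 1.10 CPM across the 14 libraries, and neither passed in any comparison. Nrg3 had 1 read in 1 library and Epgn at most 5 reads in any library, so neither was tested, and Areg was not analysed here.

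Beyond the ligands, 5 more lists of the pathway were read from the same fits, which brings the lists to 6 with 63 genes, 59 of them tested. After TAC 5 of the 59 passed on the adjusted p-value in WT hearts and 10 in HCN4F hearts, all of them higher. That is 8.47% and 16.9%, where 4.54% and 13.6% of all tested genes passed, and 2.92% and 7.2% of all tested genes passed as higher. The median log2 fold change over the 59 was 0.17 in WT and 0.15 in HCN4F hearts, against -0.02 and -0.01 over all tested genes. Between genotypes Nrg4 alone passed, in Sham and in TAC hearts.

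In WT hearts the genes that passed belonged to the PI3K-AKT arm, which carries growth and survival signals, and to the adaptors that dock on activated receptors. Of 13 tested genes of the PI3K-AKT arm 3 passed, where 4.54% of all tested genes passed on the adjusted p-value (2.92% as higher). Pdpk1, the kinase that activates AKT, rose by 0.74 ± 0.14 on the log2 scale (adjusted p = 0.0112). Gsk3b, a kinase that AKT inhibits, rose by 0.44 ± 0.09, and Mtor, a kinase of growth control, by 0.34 ± 0.08. Among 11 tested adaptors 2 passed, one of them Erbin, a binding partner of ERBB2 (0.41 ± 0.09, adjusted p = 0.0206). No gene of ligand shedding (8 tested), of receptor brakes (12) or of the RAS-ERK arm (12) passed there. Without WT-TAC replicate 3 none of Pdpk1, Gsk3b, Mtor and Erbin passed (adjusted p from 0.181 to 0.274), and without WT-TAC replicate 2 only Pdpk1 of these 4 did. Mtor and Erbin also failed with the replicate block (adjusted p = 0.0826 and 0.0682) and without WT-Sham replicate 1 or 4, and Mtor without WT-Sham replicate 2.

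In HCN4F hearts 4 of the 8 genes of ligand shedding passed, where 13.6% of all tested genes passed on the adjusted p-value (7.2% as higher). A difference from WT hearts was not shown, since the median log2 fold change of the 8 was 0.27 in WT and 0.30 in HCN4F hearts (-0.023 and -0.0067 over all tested genes) and none of them had an unadjusted p under 0.05 for the difference of the responses, where 9.27% of all tested genes did. Adam12, a protease known to shed HB-EGF, was the one gene of the lists that was called, at 0.928 ± 0.210 CPM in Sham and 1.88 ± 0.62 CPM in TAC hearts (log2 fold change 1.01 ± 0.25, adjusted p = 0.0129), although its lowest TAC library lay just under the highest Sham library (both 1.20 CPM). With a library left out its log2 fold change ran from 0.81 to 1.18. The call was lost without HCN4F-Sham replicate 2 or 4 or HCN4F-TAC replicate 1 or 2. There the fold change was 0.81 to 0.96 (adjusted p still 0.0488 or less). The call was also lost with the replicate block, at 0.9998 (adjusted p = 0.0153 by edgeR). Adam9, a related protease, rose by 0.34 ± 0.09 and Rhbdf1, an inactive rhomboid that governs the traffic of the sheddase ADAM17, by 0.32 ± 0.08. Of 12 receptor brakes 2 passed, the phosphatase genes Ptpn1 (0.32 ± 0.07) and Ptpn12 (0.25 ± 0.07), a share near the 13.6% over all tested genes. The adaptor genes Gab2 (0.45 ± 0.09) and Shc1 (0.25 ± 0.07) passed as well. With edgeR on the HCN4F groups alone Ptpn12 (adjusted p = 0.121), Shc1 (0.0753) and Adam9 (0.0562) no longer passed. Shc1 also failed without a filter (0.0519) and without HCN4F-TAC replicate 4 (0.0571). Ptpn12 failed with DESeq2 on the HCN4F groups (0.0895), without a filter (0.0686), with the replicate block (0.0580) and without any one of 5 libraries, HCN4F-Sham replicates 1 and 3 and HCN4F-TAC replicates 1 to 3 (adjusted p from 0.0582 to 0.0953). The fibroblast markers moved in the same comparison, with 3 of 7 passing as higher, where 7.2% of all tested genes did. Their summed level was 689 to 892 CPM in HCN4F-Sham and 834 to 1323 CPM in HCN4F-TAC libraries. Their part in these changes was not tested.

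Genes whose log2 CPM followed a member most closely over the 14 libraries were sought among tested genes with a mean of at least 1 CPM. For Hbegf these were Fhl1 (Pearson's r = 0.984), Xirp1 (0.967) and Mtpn (0.966), genes expressed in striated muscle. For Nrg1 they were Nhp2 (0.889), Tmsb10 (0.887) and S100a6 (0.884), and for Nrg2 A930004D18Rik (0.874), Med20 (0.872) and Cdk20 (0.871). Egfr was followed by S1pr4 (0.952), Hexim1 (0.926) and Atcayos (0.905), and Btc by C130080G10Rik (0.922), Mmachc (0.911) and Lrrc20 (0.895). For Erbb2 the closest were Arhgap32 (0.903), Pard6g (0.894) and Vangl2 (0.873), for Erbb3 Ints7 (0.884), Plekha1 (0.877) and Zfp955b (0.862), and for Erbb4 Arhgap20 (0.910), Pcmtd2 (0.909) and Phf3 (0.906). These are the highest of many correlations over the same libraries, which share group and depth, and are given as a description. Ereg was below 1 CPM on average and was left out.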

How the data were processed

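Polyadenylated RNA from the left ventricle was sequenced on an Illumina platform. The authors deposited raw counts of reads per gene, without normalization. The submitters' processing notes name the build GRCm38, while the aligner, counting program, annotation and use of strand are not given in the sources used here. The study describes 16 samples, of which 14 were analysed here, grouped by their labels. The remaining samples of the WT-TAC group were left out. The table holds 2 more columns whose names mark WT-TAC hearts but match none of these 14 samples, and they were not used.

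Counts of 15292 genes kept by filterByExpr were scaled by TMM and fitted over all 4 groups with edgeR 4.0.16 (R 4.3.3), using the robust quasi-likelihood test and p-values adjusted over all of these genes by Benjamini-Hochberg. CPM are on the TMM scale without a pseudocount, and log2 CPM per library used a prior count of 2. Exon lengths, locations and coding sequences came from GENCODE M21. The steps were tested on simulated data. Alternatives were DESeq2 1.42.0 on all groups or on those compared, edgeR on those compared, other size factors, filters and estimation, the replicate number as a block, and each library left out. From each pathway list, genes called in a comparison and the 3 with the smallest passing adjusted p were named. Single genes that this rule selects are not all reported here. The 9 genes and the lists were chosen with earlier results of these data known. No protein sequences were used here. P-values measure the spread between animals of these groups, 2 of them in WT-TAC.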

Additional observations from a re-analysis of the deposited data

Results flagged for a closer look

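Of 27 groups of 4 libraries examined (9 genes in each of 3 groups), 2 held a library far from the others. Chance alone gives about 1 in 20 for continuous values, a rate that does not hold for counts tied at 0, as for Ereg. Btc was at 1.41 CPM in HCN4F-TAC replicate 3, and the other 3 libraries of the group lay between 1.15 and 1.18 CPM. Ereg was at 0.113 CPM in HCN4F-Sham replicate 1, from 3 reads, while the other 3 libraries had none. The responses of Erbb4 to TAC had opposite directions, since both WT-TAC libraries lay above the WT-Sham mean and all 4 HCN4F-TAC libraries below the HCN4F-Sham mean. Their difference was -0.80 on the log2 scale and did not pass adjustment (adjusted p = 0.459 by edgeR).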

How the results depend on the processing

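Of 706 recomputed log2 fold changes of the 9 genes, 680 kept their direction and their side of the threshold, 10 lost a call, 7 gained one and 9 turned sign, all of the last at values that did not pass. With the replicate block Erbb2 turned to -0.0032 after TAC in WT hearts. The other 8 turned without a single library each. Without WT-TAC replicate 3 these were Btc after TAC in WT (-0.080 to 0.40 over the libraries left out) and, between TAC groups, Btc (-0.38 to 0.094), Egfr (-0.20 to 0.49) and Nrg2 (-0.27 to 0.91). Egfr also turned without HCN4F-TAC replicate 4 (-0.12 between TAC groups, and -0.13 to 0.26 after TAC in HCN4F). Between Sham groups Nrg1 (-0.11 to 0.61) turned without HCN4F-Sham replicate 1 and Erbb3 (-0.0074 to 0.076) without HCN4F-Sham replicate 3. The number of the 9 genes called after TAC in WT hearts (2) was 1 with DESeq2 on all groups (Hbegf), where Nrg2 and Ereg had no adjusted p. It was 1 without a filter on low counts (Nrg2), 1 with the replicate block (Nrg2) and 0 to 1 with a WT-Sham library left out. Over all genes, 109 of 12471 were called with DESeq2, 130 of 29814 without a filter and 68 of 15292 with the block. The main fit called 108 of 15292. After TAC in HCN4F hearts (2) the number of the 9 was 1 with a mean CPM of at least 1, where Ereg was not tested, and 2 to 3 with a library left out. Over all genes that filter gave 260 of 12564 called, against 420 of 15292 in the main fit. Between TAC groups (0) the number of the 9 was 1 with DESeq2 on all groups (Nrg1), where Ereg had no adjusted p, and 2 with DESeq2 on the 2 groups (Nrg1 and Ereg). It was 1 without a filter (Ereg) and 0 to 2 with an HCN4F-TAC library left out. Over all genes, 83 of 14782, 68 of 13882 and 48 of 29814 were called with DESeq2 on all groups, DESeq2 on the 2 groups and no filter. Without HCN4F-TAC replicate 3 it was 158 of 15300, and in the main fit 11 of 15292. The cause was not tested.

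Deviations from the group means correlated at -0.12 to 0.16 between libraries with the same replicate number (18 pairs). Between libraries with different numbers they correlated at -0.24 to 0.20 (54 pairs). This gave no sign that the numbers pair the samples, but it cannot exclude a pairing or a shared batch. The 2 WT-TAC libraries deviate as mirror images, so their pairs are not independent. With the number as a block the log2 fold change of Hbegf in WT hearts was 1.18 (adjusted p = 0.0651). Without a filter its adjusted p was 0.0910. Where DESeq2 gave no adjusted p (Nrg2 and Ereg in some comparisons) none is given here. Ereg, Nrg1, Nrg2 and Btc rest on few reads, and WT-TAC on 2 libraries, so one library left out leaves a lone library assumed to vary like the other groups.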
